A study of Mus musculus with 4 samples.

Results

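The orphan nuclear receptors of the gonad examined here were 8 genes: Nr5a1 (SF1), Nr5a2 (LRH-1), Nr2f1 (COUP-TFI), Nr2f2 (COUP-TFII), Nr2f6, Nr0b1 (DAX1), Nr4a1 and Nr6a1 (GCNF). RUNX1 binding at them was read from ChIP-seq of fetal ovaries, a method that sequences the DNA pulled down with an antibody against a chromatin protein. The ovaries came from female CD1 mouse embryos at E14.5, were freed of the mesonephros and were pooled, 80 to 100 per ChIP by the sample labels, while the study's methods give a somewhat larger number. For the RUNX1 ChIP group, 2 pools were precipitated with 10 μl of antibody from 20 to 30 μg of chromatin, and the input group had 2 libraries made without antibody. The authors merged the replicates before they called peaks, so each peak carries 1 fold enrichment and 1 p-value, with no value per replicate and no error. The series holds no mutant and no other stage or sex, and differences between peaks are therefore given as descriptions, without a test. A peak was counted for a receptor gene when the transcription start site (TSS) nearest to the peak's edge, among curated RefSeq transcripts on mm10, was that gene's, or when it lay within the gene body. By this rule 10 of the 10494 peaks belonged to 5 of the 8 genes: Nr2f2 had 4, Nr5a2 had 3, and Nr2f1, Nr4a1 and Nr6a1 had 1 each. Nr5a1, Nr2f6 and Nr0b1 had 0.

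Nuclear receptors are transcription factors built around a zinc-finger DNA-binding domain and a ligand-binding domain, and those called orphan were found before any physiological ligand was known. In the gonad, SF1 is required for the organ to form and switches on steroidogenic genes, LRH-1 binds the same DNA site and acts in granulosa cells, and DAX1, which lacks the usual DNA-binding domain, represses both. COUP-TFII marks interstitial cells of fetal gonads, NR4A1 is induced rapidly by hormones and other stimuli, and GCNF is known from germ cells. RUNX1 is present in the supporting cells of the fetal ovary, the pre-granulosa cells, and binds a core of 6 bases, TGTGGT or TGCGGT. The chromatin came from whole ovaries, so binding in a few cells and weak binding in many cannot be told apart.

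The sequences under the peaks are shown first, because the peaks fell into those with and those without a RUNX core. For each bound gene the peak of highest fold is given and, for Nr2f2, also the strongest distant peak with a core. The sequences are those of the mm10 forward strand, in lower case, with capitals for a RUNX core, which reads ACCACA or ACCGCA where it lies on the reverse strand.
Nr5a2 chr1:136832868-136833167: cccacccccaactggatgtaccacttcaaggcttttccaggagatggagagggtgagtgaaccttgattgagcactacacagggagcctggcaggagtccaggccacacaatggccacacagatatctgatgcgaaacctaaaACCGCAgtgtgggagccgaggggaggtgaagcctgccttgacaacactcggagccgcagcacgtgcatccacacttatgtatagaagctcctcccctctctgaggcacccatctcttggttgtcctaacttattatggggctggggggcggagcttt
Nr2f1 chr13:78163356-78163655: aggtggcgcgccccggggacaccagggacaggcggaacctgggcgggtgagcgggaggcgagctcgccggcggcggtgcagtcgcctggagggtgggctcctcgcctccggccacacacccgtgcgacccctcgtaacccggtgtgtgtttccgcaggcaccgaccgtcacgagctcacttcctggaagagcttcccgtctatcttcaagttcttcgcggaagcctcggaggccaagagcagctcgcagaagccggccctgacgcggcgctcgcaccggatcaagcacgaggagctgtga
Nr2f2 chr7:70361569-70361868: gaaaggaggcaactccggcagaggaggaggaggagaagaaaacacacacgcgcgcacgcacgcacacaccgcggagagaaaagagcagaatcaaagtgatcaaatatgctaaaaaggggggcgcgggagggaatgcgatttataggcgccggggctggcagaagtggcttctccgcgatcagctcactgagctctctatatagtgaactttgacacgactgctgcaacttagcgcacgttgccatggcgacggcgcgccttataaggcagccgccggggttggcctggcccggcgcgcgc
Nr2f2 chr7:70624384-70624683: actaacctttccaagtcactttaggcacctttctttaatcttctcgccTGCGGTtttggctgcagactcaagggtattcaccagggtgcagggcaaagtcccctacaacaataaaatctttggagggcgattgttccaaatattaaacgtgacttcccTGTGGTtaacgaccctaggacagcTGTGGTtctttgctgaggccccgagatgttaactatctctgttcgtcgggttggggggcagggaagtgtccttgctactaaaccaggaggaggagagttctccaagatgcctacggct
Nr4a1 chr15:101246440-101246739: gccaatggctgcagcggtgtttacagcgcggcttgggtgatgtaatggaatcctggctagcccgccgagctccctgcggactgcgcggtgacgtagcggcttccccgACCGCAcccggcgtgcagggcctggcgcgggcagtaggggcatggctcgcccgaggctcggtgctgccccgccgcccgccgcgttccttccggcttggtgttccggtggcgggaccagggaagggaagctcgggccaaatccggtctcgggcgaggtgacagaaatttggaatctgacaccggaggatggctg
Nr6a1 chr2:38925776-38926075: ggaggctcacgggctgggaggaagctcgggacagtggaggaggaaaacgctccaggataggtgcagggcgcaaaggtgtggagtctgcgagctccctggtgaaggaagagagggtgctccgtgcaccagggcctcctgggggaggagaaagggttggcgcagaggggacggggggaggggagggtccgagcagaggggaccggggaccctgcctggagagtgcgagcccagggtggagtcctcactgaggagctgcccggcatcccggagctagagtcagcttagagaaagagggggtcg
Of these 6 peaks, 3 held a core and 3, the strongest of Nr2f1, Nr2f2 and Nr6a1, held none. The Nr2f1 peak lies wholly within Fam172a, a gene on the opposite strand. At its right end, 143 bp are coding sequence of the last exon of Fam172a, up to the stop codon.

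Across the 10 peaks, fold enrichment ran from 4.10 to 11.11 with a median of 5.385, against 4.01 to 358.22 and a median of 6.41 in all peaks. The strongest peak of each bound gene had a median of 6.88. Whether the receptor peaks differed in strength from the list was not tested. Of the 10, 7 lay below the median of all peaks, 3 of them under the lower quartile of 5.02, and 2 lay above the upper quartile of 8.89.

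**Figure D1:**
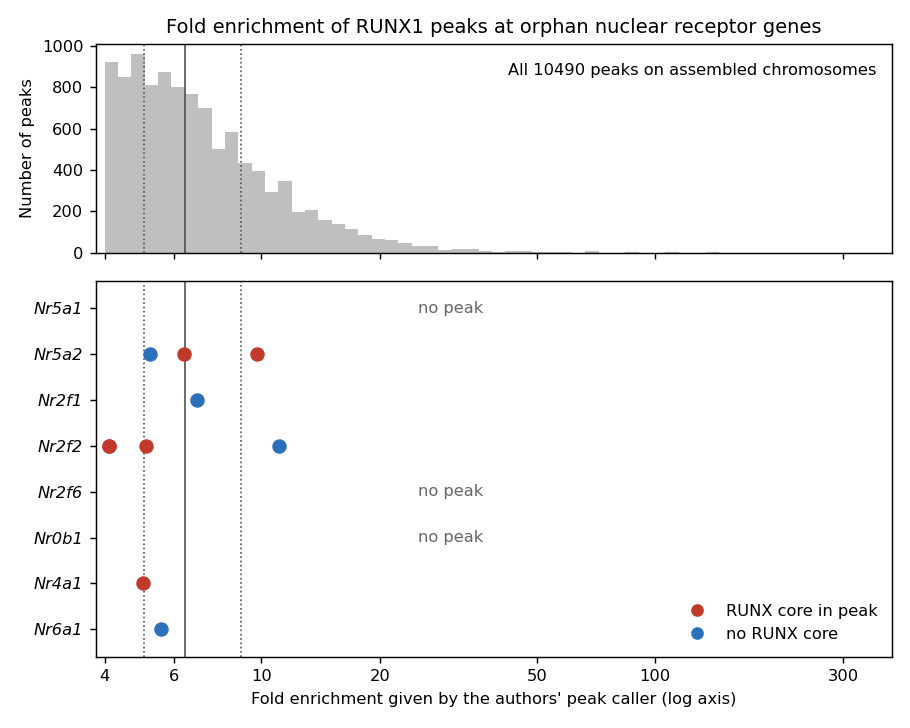
Fold enrichment (log axis) of all RUNX1 peaks as a histogram of peak counts, above, and of each peak of the 8 receptor genes, below, with 1 point per peak, red with and blue without a RUNX core; the solid line is the median of all peaks (6.41) and the dotted lines are the quartiles (5.02 and 8.89). The strongest peaks of Nr2f2 and Nr5a2 lie above the upper quartile, and the Nr2f2 points at 4.10 and 4.11 lie on top of each other.

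By the nearest-TSS rule, Nr5a2 had peaks and Nr5a1 had none, but counts by distance alone depended on the limit. Within 10 kb and within 50 kb of a TSS lay 0 peaks for Nr5a1 and 1 for Nr5a2. At wider limits the order turned: within 100 kb lay 3 for Nr5a1 and 1 for Nr5a2, and within 500 kb 9 and 5. The neighbouring TSSs enclose 140.6 kb at Nr5a1 and 1270.2 kb at Nr5a2. Nr5a2 (gene ID 26424, chr1:136843584-136960448, minus strand) had peaks on both sides of the gene and 1 inside it. The strongest, at chr1:136832868-136833167, lay past the 3′ end, 120463 bp downstream of the nearest TSS, with a fold of 9.72 and a p-value of 5.22e-27, and 79.6% of all peaks had a lower fold. The peak at chr1:137079405-137079704 was as far away on the other side, 118957 bp upstream, with a fold of 6.35 and a p-value of 3.16e-12. The next curated gene by TSS was Platr22, at 136657 bp from the first of them and 383194 bp from the second.

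The peak within Nr5a2, at chr1:136948944-136949243, was the weakest of the 3 (fold 5.22, p-value 3.84e-13). It lay in intron 2 of both curated transcripts, 4387 bp downstream of a TSS. Other gene models put a start of Nr5a2 there: the peak covered a GENCODE TSS of the gene and was 334 bp from the TSS of a predicted RefSeq transcript. Its sequence resembled promoters in composition, with 68.7% GC and 28 CpG dinucleotides, where the distant peaks had 55.7% and 46.7% GC and 7 CpG each.

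Nr5a1 (gene ID 26423, chr2:38692656-38714542, minus strand) had no peak within 50 kb of a TSS. The closest lay 53480 bp downstream of it, past the gene's 3′ end, with a fold of 6.25, and was nearer to Psmb7, a proteasome subunit gene whose TSS was 14549 bp away. Of the 3 peaks within 100 kb, with folds of 6.25, 7.10 and 8.52, all were nearest to Psmb7. RefSeq annotates regulatory elements of Nr5a1, and the closest peak to each was far off: 35951 bp from the intron 6 region with pituitary and hypothalamic enhancers, 46150 bp from the fetal adrenal enhancer in intron 4, 51988 bp from the 5′ regulatory region and 59348 bp from the fetal Leydig cell enhancer. At the limits of this list, none of them overlapped a peak.

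Among the COUP-TF genes, Nr2f2 (gene ID 11819, chr7:70351950-70366746, minus strand) had the most peaks of the 8 genes. A pair, 1372 bp apart, lay on either side of the TSS of its transcript NM_009697.3. The stronger, at chr7:70361569-70361868, had a fold of 11.11 and a p-value of 2.79e-25, the highest fold among the 10 peaks and above that of 84.7% of all peaks. It was 976 bp upstream of the TSS of transcript NM_009697.3 and, at the same time, in intron 1 of the longer transcript NM_183261.3. The weaker, at chr7:70359897-70360196, lay wholly in coding sequence of exon 1 of NM_009697.3, 397 bp downstream of its TSS, with a fold of 4.10 and a p-value of 1.43e-10. Only 2.1% of all peaks had a lower fold.

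The other Nr2f2 peaks lay far upstream in a stretch with few genes, at chr7:70576491-70576790 (209745 bp, fold 4.11, p-value 2.24e-07) and chr7:70624384-70624683 (257638 bp, fold 5.09, p-value 1.4e-09). Their assignment rests on the annotation. The nearer of them was 7 bp from a TSS of Gm44812, a gene that GENCODE classes as a lincRNA and the predicted RefSeq models as protein-coding (TSS 2028 bp away) and that is not among the curated transcripts. With predicted RefSeq transcripts included both were nearer to another gene. The curated non-coding gene B130024G19Rik, which starts within the Nr2f2 gene body, was only slightly farther from them, at 211108 and 259001 bp. On the downstream side, peaks at 34823 bp (fold 4.86) and 79359 bp (fold 6.48) were nearer to the non-coding gene Gm29683 and were not counted for Nr2f2. With protein-coding genes alone they belonged to it as well.

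Nr2f1 (gene ID 13865, chr13:78188973-78198873, minus strand) had a single peak, at chr13:78163356-78163655, 32794 bp downstream of a TSS and past the end of the gene (fold 6.88, p-value 6.85e-14). The next peak in either direction was 1027833 bp away. This is the peak that reaches into the last exon of Fam172a, whose own gene body spans chr13:77708690-78166240, and a GENCODE non-coding gene, 3110006O06Rik, had a TSS 7975 bp away. Among curated genes the next TSS, of the non-coding A830082K12Rik, was 34362 bp away, little farther than that of Nr2f1. With 69.0% GC and 34 CpG it was the most GC- and CpG-rich of the 10.

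Nr2f6 (gene ID 13864, chr8:71374119-71381952, minus strand), the third COUP-TF family gene, had no peak although its surroundings were bound. Peaks lay over the TSS of Ocel1 (fold 11.11), 10372 bp from that of Nr2f6, and over the TSS of Use1 (fold 4.32), 14490 bp from it. Nr2f6 sits in a dense region, where the neighbouring TSSs on either side enclose 24.5 kb, against 1571.8 kb for Nr2f2 and 2858.5 kb for Nr2f1. These stretches skip B130024G19Rik and A830082K12Rik, which start between the TSSs of Nr2f2 and of Nr2f1. Nr5a2, Nr2f1 and Nr2f2, whose stretches between neighbouring TSSs were the longest of the 8 genes (at least 1270.2 kb), held 8 of the 10 peaks. The nearest-TSS rule gives such genes more ground in which to receive a peak.

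The remaining receptors had few peaks or none. Nr6a1 (gene ID 14536, chr2:38723374-38926461, minus strand), the neighbour of Nr5a1, with nearest TSSs 69973 bp apart, had a peak at chr2:38925776-38926075, in intron 1 of its longest transcript and 386 bp downstream of the TSS (fold 5.55, p-value 4.65e-11). Nr4a1 (gene ID 15370, chr15:101266846-101274795, plus strand) had a peak at chr15:101246440-101246739, 20107 bp upstream (fold 5.0, p-value 7.11e-21). Its fold and p-value ranked it differently: 24.3% of all peaks had a lower fold, but 66.8% had a higher p-value. A predicted RefSeq transcript of Nr4a1 began 7163 bp from this peak, and the TSS of the curated gene A330009N23Rik was 21254 bp from it. Closer to the curated TSS than the gene's own peak was a peak over the TSS of the autophagy gene Atg101, 17187 bp away with a fold of 9.46.

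Nr0b1 (gene ID 11614, chrX:86191775-86195947, plus strand) was the member farthest from any binding. The closest of the 207 peaks on the X chromosome lay 617315 bp from its TSS, at the TSS of Tab3 (fold 8.64), and none lay within 500 kb. The annotated 5′ regulatory region of Nr0b1, which holds sites for SF1, LRH-1 and COUP-TF, was 612668 bp from a peak.

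**Figure D2:**
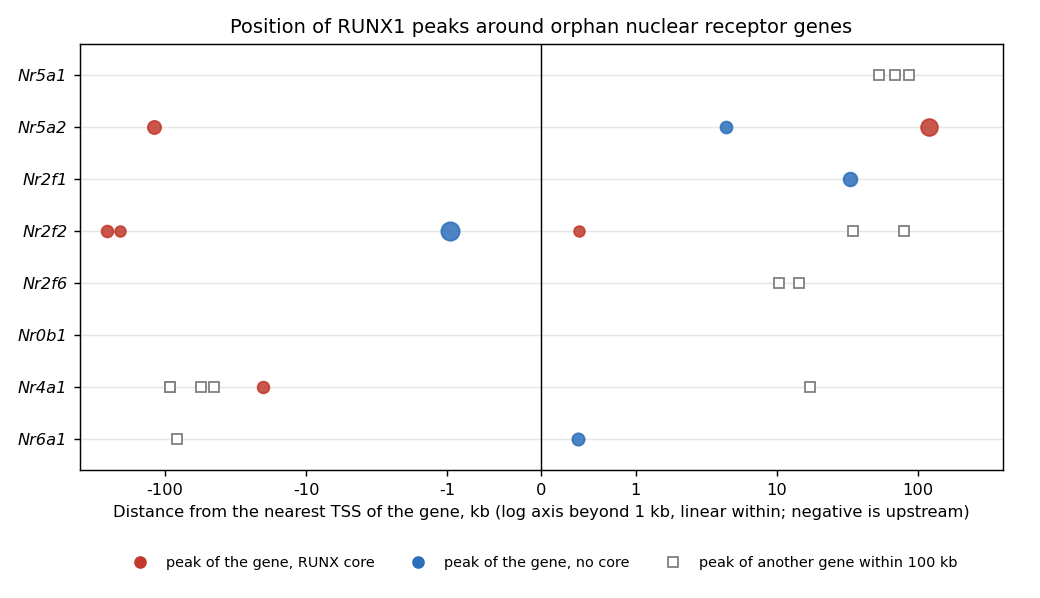
Signed distance in kb from the nearest TSS of each gene to its RUNX1 peaks (circles, larger for a higher fold, red with and blue without a RUNX core) and to peaks nearest to other genes within 100 kb (open squares); the axis is linear within 1 kb and logarithmic beyond, and negative is upstream. Circles at Nr5a2 and Nr2f2 reach beyond 100 kb, whereas Nr5a1 and Nr2f6 have only squares and Nr0b1 has neither.

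The members were read against the rest of the list, with no test. The 5 of 8 bound genes compare with 40.8% of protein-coding genes, 36.6% of all curated genes and 48.8% of the other 41 nuclear receptor genes having at least 1 peak by the same rule. The 2 with several peaks, Nr5a2 and Nr2f2, compare with 7.3% of protein-coding genes and 17.1% of the other nuclear receptor genes having at least 2. The peaks lay farther from a curated TSS than most of the list did. Of the 10 peaks, 3 were within 1 kb of a TSS (76% of all peaks), 6 were over 10 kb away (15.9%) and 4 were over 100 kb away (2.91%), and the median distance was 26450.5 bp against 111 bp. With GENCODE TSSs in place of curated ones, 5 of the 10 were within 1 kb of a TSS (80.6% of all peaks). The far distances rest on the curated annotation. The 4 peaks over 100 kb from a curated TSS were 33909 and 89135 bp (Nr5a2) and 7 and 13927 bp (Nr2f2) from a GENCODE TSS. For GENCODE, the shares of all peaks over 10 kb and over 100 kb away were not computed.

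The RUNX core lay in 6 of the 10 peaks, against 39.9% of all peaks. By distance from a curated TSS, it lay in 5 of the 6 peaks over 10 kb away, against 61.1% of all such peaks. Within 1 kb of a TSS it lay in 1 of 3, against 2729 of 7969 in the whole list. Whether the shares differed was not tested. The core was absent from the strongest Nr2f2 peak, the intronic peaks of Nr5a2 and Nr6a1 and the Nr2f1 peak. The form TGTGGT occurred in 3 peaks, all of them distant (19.5% of all peaks and 43.9% of those over 10 kb from a TSS), and TGCGGT in 5 (23.7% of all peaks). The upstream peak of Nr5a2 held 2 cores and the farther of the far upstream Nr2f2 peaks held 3, while the nearer Nr2f2 peak, the downstream Nr5a2 peak, the Nr2f2 exon peak and the Nr4a1 peak held 1 each. At least 2 cores were in 8.26% of all peaks and in 18.3% of those over 10 kb from a TSS. The 9 cores are aligned here with 10 bases on either side, read in the direction of the core, which is in capitals. Before and after the midpoint are counted along the mm10 forward strand, whichever strand the core is on.
Nr5a2, past the 3′ end, 4 bp before the midpoint: gctcccacacTGCGGTtttaggtttc
Nr5a2, far upstream, 90 bp before the midpoint: ggccacagaaTGCGGTtagtctcaga
Nr5a2, far upstream, 15 bp after the midpoint: tcactcaaccTGTGGTttgccaggca
Nr2f2, first coding exon, 99 bp before the midpoint: tggcactggtTGCGGTggtgctggtc
Nr2f2, nearer of the far upstream peaks, 13 bp after the midpoint: gggggaggatTGTGGTcatcccctcg
Nr2f2, farther of the far upstream peaks, 99 bp before the midpoint: tcttctcgccTGCGGTtttggctgca
Nr2f2, farther of the far upstream peaks, 11 bp after the midpoint: gtgacttcccTGTGGTtaacgaccct
Nr2f2, farther of the far upstream peaks, 35 bp after the midpoint: ctaggacagcTGTGGTtctttgctga
Nr4a1, upstream, 40 bp before the midpoint: gcacgccgggTGCGGTcggggaagcc
In 4 of the 10 peaks, all of them distant from curated TSSs, a core lay within 25 bp of the midpoint (12.8% of all peaks). In the Nr2f2 exon peak the only core was 99 bp from the midpoint. Among the peaks counted as distant, the nearer far upstream Nr2f2 peak was 7 bp from a GENCODE TSS and the Nr4a1 peak 7530 bp. After the core, 6 of the 9 had a T, as 33.7% of the 5193 cores in all peaks did. For both counts the share among peaks over 10 kb from a TSS was not computed. Such peaks hold cores more often than the list does (61.1% against 39.9%).

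Matches to the sites of other factors in the 10 peaks are given beside the shares in the whole list. The counts were not tested against these shares. The site that SF1 and LRH-1 bind as monomers, AAGGTCA or AAGGCCA, was in 0 of 10 (9.6% of all peaks), and so in 0 of the 6 distant ones (20.4% of all peaks over 10 kb from a TSS). GATA sites, AGATAA or TGATAA, were in 1 peak (8.33% of all peaks and 25.4% of those over 10 kb away), 97 and 115 bp after the midpoint of the upstream Nr5a2 peak. A forkhead site, TGTTTAC or TATTTAC, was in 1 (3.24% and 7.11%), near the edge of the Nr4a1 peak, which is also a distant one. The ETS site CCGGAAGT (4.66% and 0.956%) and the CTCF motif (1.35% and 3.77%) were in 0.

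**Figure D3:**
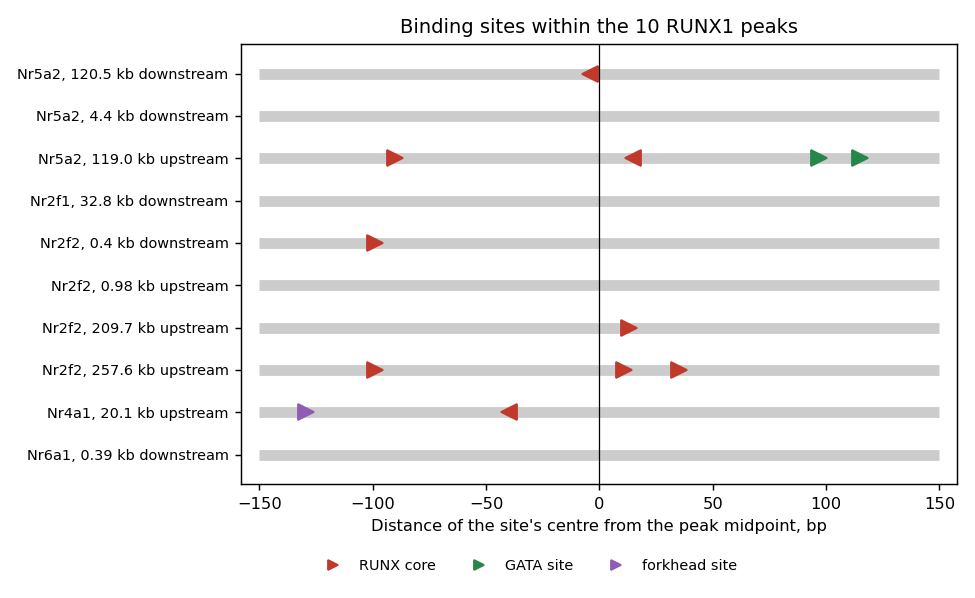
RUNX cores (red), GATA sites (green) and forkhead sites (purple) within the 10 peaks of 300 bp (grey bars), placed by the distance in bp of the site's centre from the peak midpoint, with triangles pointing right for the forward strand and left for the reverse strand. Cores lie within 25 bp of the midpoint in 4 peaks, and 4 peaks carry no site.

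Base composition split the distant peaks. The peaks of Nr2f1 and Nr4a1 had 34 and 32 CpG, at or above the median of 29 in peaks within 1 kb of a TSS, a level reached by 2 of the 6 distant receptor peaks and by 9.32% of all peaks over 10 kb away. The other 4, at Nr5a2 and Nr2f2, had 5 to 9 CpG, near the median of 7 for all peaks over 10 kb away. In the 300 bp promoters of these genes in RefSeq (250 bp before to 50 bp after a TSS), with 10 windows and none for Nr5a1, the core was in 2, at Nr2f1 and Nr0b1, against 22.4% of all promoter windows.

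The other nuclear receptor genes give the range in which these values lie. Of 41, 20 had 32 peaks in all, of which 43.8% held a core. Of these peaks, 59.4% were within 1 kb of a TSS of their own receptor gene and 28.1% were over 10 kb from it. The shares of all peaks above use the nearest TSS of any gene instead. The strongest were at Rarg (fold 21.84, 427 bp from the TSS), a retinoic acid receptor, at Nr4a2 (17.90, 1667 bp), at Esr2 (12.34, 18491 bp), the oestrogen receptor β of granulosa cells, at Thra (11.85, 236 bp), at Ppard (10.08, over the TSS) and at Nr1h4 (9.95, 2025 bp), the bile acid receptor. Ranked by strongest peak among the 25 bound receptor genes, Nr2f2 was number 5, Nr5a2 number 8, Nr2f1 number 12, Nr6a1 number 17, level with 1 other gene, and Nr4a1 number 21. Within the NR4A family, Nr4a2 had 4 peaks, 2 with a core, Nr4a1 had 1 and Nr4a3 had 0, its closest peak being 79553 bp away. Of the NR0B genes neither had a peak, and for Nr0b2 (SHP) the closest was 21408 bp away. With 4 peaks, Nr2f2 matched the most of any other receptor gene, which Nr4a2 and Rxra had.

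**Figure D4:**
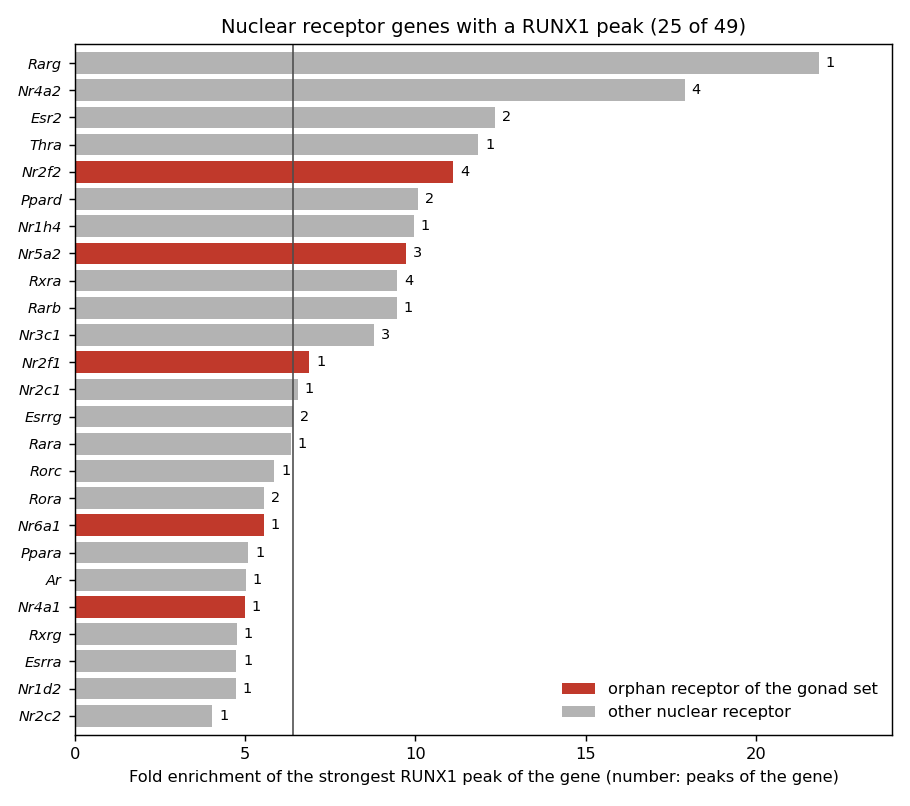
Fold enrichment of the strongest RUNX1 peak (bar length, from 0) of each of the 25 nuclear receptor genes with a peak, with red bars for the gonadal orphan receptors, the number of peaks of the gene at the end of each bar and a line at the median fold of all peaks (6.41). Of the red bars, Nr2f2, Nr5a2 and Nr2f1 pass the line.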

How the data were processed

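RUNX1 ChIP and input libraries of E14.5 ovaries (2 each) were, per the labels and the study's methods, mapped uniquely to mm10, cleared of duplicates and merged by replicate, and peaks were called on the merged reads, reset to 300 bp and kept where they exceeded both the input and the surrounding signal. HOMER 4.9, Bowtie 1.2, bedtools 2.24.0 and Picard 1.110 are the tools listed by the submitters' processing notes. The deposited list gives each peak's position with the peak caller's fold ratio and p-value in 1 column, the p-value being at most 2.44e-06. Read counts per peak and depth per library were not analysed here.

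Peaks on assembled chromosomes (10490; 4 lay elsewhere) were compared with GRCm38.p6, the mm10 assembly, and 45756 curated RefSeq transcripts of 26180 genes, 21000 of them protein-coding. GENCODE M21 gave further TSSs. Distances run from the peak's edge. Shares of peaks with a lower fold or a higher p-value are over all 10494 peaks. Medians, quartiles and the other shares of all peaks are over the 10490. Sequences come from the same assembly, promoter windows from the RefSeq promoter table, and sites were matched by letters on both strands, with the search and assignment steps tested on simulated data. Python 3.11.15, pandas 2.3.3 and numpy 2.4.6 were used.

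The genes and lists were chosen with earlier results of these data known. Named were the 8 genes, any gene whose TSS ties with or beats theirs for a peak inside the gene body (none did), Nr4a2, Nr4a3, Nr0b2 and the 6 other receptors with the highest fold at their strongest peak. Genes beside the peaks and Rxra were named after their values were seen. The position of cores, the letter after them, CpG counts and GENCODE distances were added after seeing the data.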

Additional observations from a re-analysis of the deposited data

How the results depend on the processing

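The count of 10 peaks at 5 genes stayed within 1.5 times under distance from the midpoint and protein-coding genes alone (12 peaks). Dropping the gene-body part of the rule, or asking it for whole peaks, could not change the count. All 10 peaks already had a member's TSS as the nearest, and many of them lay outside the gene body. With all RefSeq transcripts it was 7 peaks at 4 genes, because the distant Nr2f2 peaks and the Nr2f1 peak fell to predicted transcripts of other genes. Counting every peak within 50 kb of a TSS gave 11 peaks at 6 genes, Nr2f6 among them. Within 10 kb it gave 4 peaks at 3 genes. A fold of at least 8 left 2 peaks at 2 genes (Nr2f2 and Nr5a2), 1 of them with a core, and a p-value under 1e-20 left 3 peaks at 3 genes, adding Nr4a1. The form TGTGGT alone was in 3 peaks. With 100 bp added on either side, 2 peaks had the monomer site of SF1 and LRH-1, at Nr6a1, 58 bp outside the peak, and across the edge of the farthest Nr2f2 peak.

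No library was left out, since values per replicate were not analysed here. No paired analysis was possible because the replicates were merged before peak calling. The fold and p-value limits leave out weaker binding, so a gene with 0 peaks had none past these limits, and unique mapping leaves out repeated sequence.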
